A study of Mus musculus with 35 samples.

Results

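Of the 30 iPS clones in this series, 3 gave no signal well above background for Nanog and Sox2 at once, namely clones #1 and #3 of 4F-OP-iPS, and clone #1 of 4F-TTF-iPS. They were chosen by that rule alone, from the scanner software's flag for the Nanog probe and the Sox2 probe on the same arrays that are described here, and they are compared with the other 27 clones. All 30 clones came from 6-week-old Nanog-reporter mice, in which a Nanog promoter drives GFP and puromycin resistance, and all were grown under puromycin on SNL feeder cells with LIF. The source cells were PαS cells (written PaS in the labels; bone marrow mesenchymal stem cells positive for PDGFRα and Sca-1), OP cells (osteoprogenitors of the bone marrow) and TTF (tail tip fibroblasts at passage 3). Each was infected with retroviruses for DsRed and either 4 factors (4F: Oct3/4, Sox2, Klf4 and c-Myc) or 3 factors (3F: the same without c-Myc), which gave 6 groups of 5 clones. According to the paper, the clones were picked at random among colonies positive for GFP and negative for DsRed. ES cells had 2 arrays, of the lines EB-3 and RF8, and each kind of source cell had a single array. A clone is a single line on a single array, so that no clone has a replicate of its own.

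Nanog and Sox2 are transcription factors of the circuit that holds a cell in the pluripotent state, in which Oct3/4 (gene Pou5f1) and Sox2 bind next to each other at many enhancers and promoters, that of Nanog among them. Esrrb, Klf4, Tbx3 and Tfcp2l1 belong to the naive part of the same circuit, which is known from mouse ES cells. Cells that stop on the way to this state, often called partially reprogrammed, are known to switch on epithelial and early ES-cell genes while the late ones stay silent. In the mouse, many germline genes are also switched on in ES cells, and DNA methylation of CpG-rich promoters keeps them silent in somatic cells.

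The probes that made the choice were 60 bases long, and the first 30 bases of each are shown, 5′ to 3′, since they define which clones are meant. Stop codons lay in 3 forward reading frames of the Nanog probe and in 2 of the Sox2 probe. The Nanog probe therefore cannot lie wholly in coding sequence, while the place of the Sox2 probe within its gene was not settled here. They map to chr6:122750894-122750953 and chr3:34459231-34459290 of mouse build mm7, as the array annotation gives it.
Nanog probe, first 30 bases: cttctgagctctatttacaacttggtgtgt
Sox2 probe, first 30 bases: tggcaatcaaatgtccattgtttataagct

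The promoter of Nanog is shown because it carries, in a single stretch, the joined binding letters of the pair of factors whose genes are at issue. The window runs from 250 bases before to 50 after the start of the transcript (RefSeq, GRCm38.p6, chr6:122707239-122707538, plus strand), and the capitals mark the match, on the minus strand, to the composite Sox and Oct motif, which was spelled CATTGT, any base, then ATGCAAA.
Nanog promoter: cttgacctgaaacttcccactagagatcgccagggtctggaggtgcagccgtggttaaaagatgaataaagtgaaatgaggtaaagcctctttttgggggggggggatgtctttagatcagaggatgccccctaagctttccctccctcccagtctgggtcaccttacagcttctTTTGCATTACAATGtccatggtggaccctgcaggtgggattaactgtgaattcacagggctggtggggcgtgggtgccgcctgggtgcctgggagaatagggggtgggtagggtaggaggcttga
Searched on both strands, this motif was found in 2 of 32851 promoter windows of the same length (0.00609%), both of them Nanog entries. The spelling was strict, with a single free base, so this share does not tell how common looser Sox and Oct sites are. The match begins 75 bases before the start site, and it is a description of the letters and not a measurement of binding.

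Values below are log2 signals relative to the 75th percentile of the array (0 is that percentile, and a step of 1 is a 2-fold change). Nanog read -6.13 in 4F-OP-iPS #1, -8.24 in 4F-OP-iPS #3, and -6.06 in TTF-derived 4F-TTF-iPS #1, whereas the other 27 clones ran from -3.30 over a median of 1.83 to 3.68. Sox2 read -8.09, -8.21 and -5.27 in the same order, against -2.04 to 3.23 with a median of 2.17 in the others. These values made the choice and are given as a description, with no test. The ES arrays read 4.38 (EB-3) and 2.72 (RF8) for Nanog and 3.84 and 3.71 for Sox2, and neither gene was above background in PαS, OP or TTF cells.

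The clone just outside the threshold was 4F-OP-iPS #2, whose Nanog (-3.30) and Sox2 (-2.04) were above background but were the lowest among the 27. Next came 4F-TTF-iPS #2, at -0.89 for Nanog and 0.21 for Sox2. Just inside the threshold lay the Nanog value of 4F-TTF-iPS #1 (-6.06) and its Sox2 value (-5.27). That Sox2 value was above the lowest signal flagged well above background on the same array (-5.41), so its flag was a close call. The rule is a flag and not a cut on the value, although the chosen and the other clones lay more than 2 log2 units apart on both genes. For many of the genes below, 4F-OP-iPS #2 stands between the chosen clones and the rest. Left out of the 27, 4F-OP-iPS #2 changed the number of probes described, and this is given beside the counts. The listed genes were not counted again without it. On several of them, such as Zfp42, Nr0b1 and Dnmt3l, it was the only other clone that was not above all 3, so their count rests on it.

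Several facts of the arrays touch these results. The chosen clones lay on slides 3, 2 and 7, each with 3 of the other clones. All 30 clones bear 1 scan date, while the ES and source arrays bear other dates. A difference between clones and those arrays therefore cannot be told apart from one between dates. The EB-3 array shared slide 9 and its scan date with the source arrays. The RF8 array lay on slide 10 with a date of its own, and 71.1% of its gene probes were above background. Gene probes above background made up 58.1% to 61.5% of all on the 3 arrays and 56.6% to 65.7% on the other 27. The Y-linked genes Ddx3y and Eif2s3y were both above background in 11 of 30 clones, among them 4F-OP-iPS #1 and #3, and were at background in 4F-TTF-iPS #1 and on the OP and TTF arrays. Differences of 4F-OP-iPS #1 and #3 from the OP array therefore include the sex of the cells. Of the 15 clones labelled 3F, 3F-OP-iPS #1 and #3 had Myc signals like those of 4F clones on 2 of 3 Myc probes, against their labels. Counts and the listed genes whose call rests on these 2 clones are given without them.

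Across the 28996 gene probes that were above background on at least 3 clone arrays, all 3 clones lay below all of the other 27, by 2-fold or more in the mean, at 492 probes (1.70%), and above all of them at 73 probes (0.252%). Of the lower probes 448 carry a gene symbol, for 405 genes, and of the higher probes 72, for 60 genes. The rule itself chose low arrays, on the same contrast, and nothing is read from these shares. None of the 3 clones was above background at 223 of the lower probes, and all 3 were at 183. The ES cells were at least 4-fold above every source array at 210 of the 492. Among the others, the clone nearest to the 3 was 4F-OP-iPS #2 at 184 of the lower probes, 4F-TTF-iPS #2 at 90 and 3F-OP-iPS #1 at 75. Without 4F-OP-iPS #2 there were 833 lower and 79 higher probes, without 3F-OP-iPS #1 there were 548 and 106, without 3F-OP-iPS #3 there were 504 and 75, and without both there were 566 and 113. Without 4F-TTF-iPS #1 the remaining pair gave 1320 and 637 probes, and without 4F-OP-iPS #3 the count of higher probes was 127. Compared only with the other clones of their own groups, 4F-OP-iPS or 4F-TTF-iPS, the 3 clones were lower at 747 probes and higher at 125.

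Among the genes named from lists that were drawn up for pluripotent cells, their sources and their alternatives, 241 passed the filter. Of these, 26 lay below all 27 other clones in all 3 (10.8%, beside 1.70% of all probes tested), none lay above them all, and 215 overlapped. These shares have unlike units, since a listed gene counts by its brightest probe only and the 1.70% counts every probe that passed. Without 4F-TTF-iPS #1 the listed counts were 58 lower and 8 higher, and within slides 58 and 3. One of the 26 is Sox2, whose place the rule had fixed, and without it the count was 25 of 240 (10.4%). For 8 of the 26 genes, another probe overlapped with the other clones. Over all probes tested, 29.4% read below the others' median in all 3 clones, which is the share to set beside such counts below. With 1.70% of all probes lower and 0.252% higher, a list of 15 genes or fewer would mostly hold none, so that a count of 0 for such a list, wherever given below, is not a result about its genes. The lists were written with earlier results of these data known. In bulk RNA, fewer cells of a type and less RNA per cell cannot be told apart.

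Pluripotency factors came first. Of 14 listed transcription factors of this circuit that passed (Nanog and Sox2 not counted), 2 lay below all other clones, Esrrb and Tbx3, and the median difference of the list was -1.72, beside -0.05 for all probes tested. Esrrb, an orphan nuclear receptor, read -8.08 in 4F-OP-iPS #1, -8.16 in 4F-OP-iPS #3 and -7.49 in 4F-TTF-iPS #1, and was not above background in any of them. It was above background in all 27 others, from -4.13 over a median of 1.70 to 3.84, so that the 3 clones were lower than their mean by at least 159-fold. The other, dimmer Esrrb probe also placed all 3 below all others, with a difference of -2.75 in place of -9.37. On the brighter probe the mean was -7.91 ± 0.37 (SD, n = 3 clones) against 1.46 ± 1.49 (SD, n = 27). Esrrb followed the selection genes almost as an on-off pattern, with 4F-OP-iPS #2 (-4.13) alone in the gap and the next clone at -0.55. Tbx3, a T-box factor downstream of LIF, was measured in all 3, at 0.01, 0.54 and 0.78, against 1.05 to 4.55 in the others, a narrow separation. A dimmer Tbx3 probe did not separate the groups.

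Other factors of the circuit were measured in these clones and overlapped with the rest. Pou5f1, the gene of Oct3/4, read 2.86, 1.96 and 1.34, within the range of the others (-1.96 to 5.22, median 3.08), while the OP and TTF arrays read -6.57 and -7.20. The lowest Pou5f1 value of any clone belonged to 4F-OP-iPS #2, which was not chosen. Sall4, a zinc finger partner of Oct3/4, read 0.44, 0.49 and 2.01 (others from 0.27, median 1.87). Klf4 read 3.11 and 3.62 in the OP-derived pair, below all 27 others, and 5.75 in 4F-TTF-iPS #1, above their median of 5.58. Since Oct3/4 and Klf4 were also delivered by the vectors, whether these probes read the RNA of the vector as well was not tested. Zfp42 (Rex1), a marker of the naive state, read -2.60, -2.19 and -0.29, and Nr0b1 (Dax1) read -2.36, -1.46 and -1.70. For both, and for Nr5a2, Utf1 and Tfcp2l1, a single other clone was not above all 3. It was 4F-OP-iPS #2 for Zfp42, Nr0b1, Nr5a2 and Utf1 and 4F-TTF-iPS #5 for Tfcp2l1. For Nr0b1 (-4.15) and Utf1 (-2.30), 4F-OP-iPS #2 lay below all 3 chosen clones.

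Markers of ES cells without a settled place in the circuit followed. Of 21 that passed, 6 lay below all other clones (Dppa2, Dppa3, Dppa4, Dppa5a, Tcl1 and Lefty2), 15 overlapped, and the median difference was -1.58. Dppa3 (Stella), a maternal factor that protects methylation marks in the early embryo, read -7.19, -8.32 and -7.52, against -3.16 to 3.07 with a median of 1.13 in the others, at least 114-fold lower. Dppa4, a chromatin protein that pairs with Dppa2, read -8.22, -7.27 and -5.09 against -3.31 to 2.65, and was just above background in 1 of the 3. Dppa2 itself read -3.85, -3.69 and -3.63, but 4F-OP-iPS #2 came close at -3.59. Dppa5a, a KH-domain RNA-binding protein, was measured in all 3 clones at 0.08, 2.46 and 2.83, well short of the others (4.05 to 8.95, median 8.49). Tcl1, a co-activator of the kinase Akt, read -5.93, -5.27 and -5.70 against -4.14 to 2.86. Lefty2, an inhibitor of Nodal, read -5.78, -6.57 and -7.15 against -5.41 to 1.23.

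The same list held genes on which the 3 clones sat among the others. Fbxo15, an F-box protein known to switch on early in reprogramming, read 4.98, 4.07 and 4.12 (others 3.58 to 5.39, median 4.50), while the OP array read -4.88 and the TTF array -5.76. Gdf3, Tdgf1 (Cripto), Lin28a and Phc1 overlapped as well. Tdgf1 read 1.20, 0.06 and -0.95, where the others had a median of 0.20. Dnmt3l, the cofactor of the de novo DNA methyltransferases, read -1.61, -0.25 and 1.09, and 1 of the 27 others, 4F-OP-iPS #2, lay as low as the highest of these values, against a median of 5.10. Its partner Dnmt3a, a de novo DNA methyltransferase, read -1.14, -0.69 and -0.51 against -0.34 to 1.85, although both other Dnmt3a probes overlapped and it was the only 1 of 7 DNA methylation genes to be separated. Dnmt1, which copies methylation at replication, read 3.01, 2.52 and 2.90 (others 1.04 to 2.89).

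**Figure D1:**
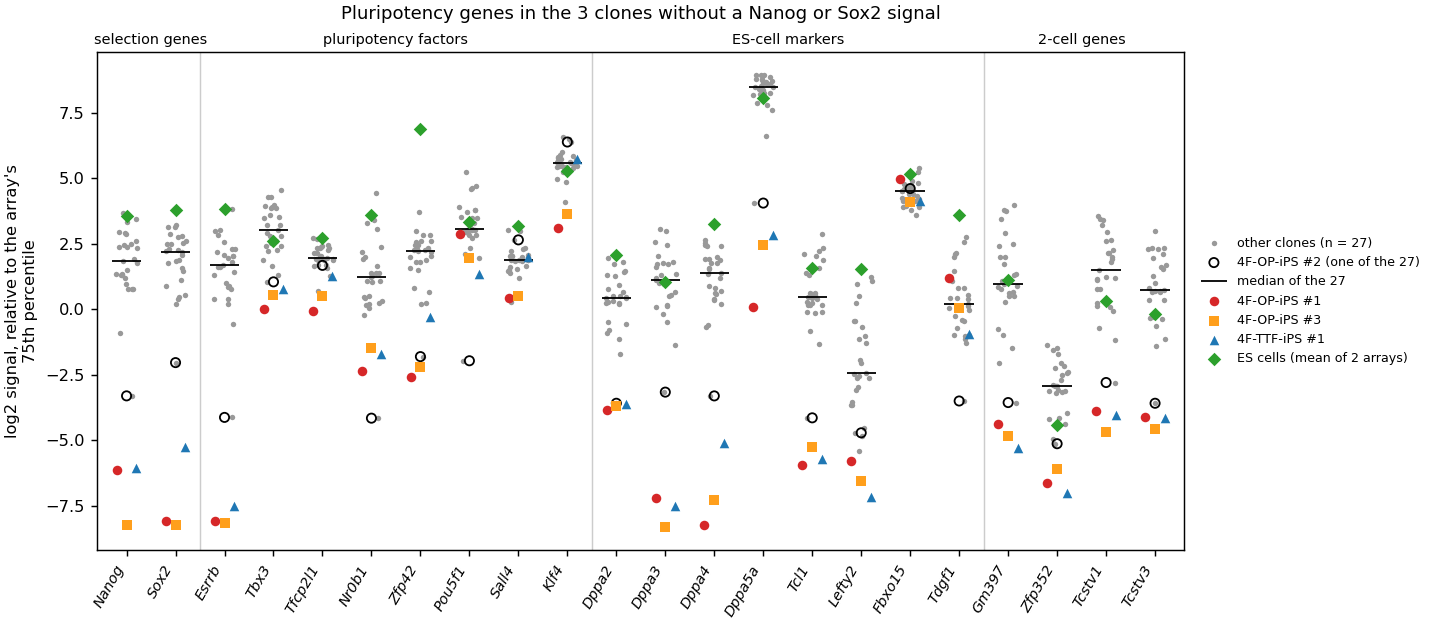
Log2 signals of pluripotency genes (vertical axis, relative to the 75th percentile of each array) in the 3 chosen clones (coloured), the other 27 clones (grey, with their median as a bar and 4F-OP-iPS #2 ringed) and ES cells (diamonds, mean of 2 arrays). Esrrb, Dppa3 and Dppa4 separate the 3 clones as Nanog and Sox2 do, while Pou5f1, Sall4, Fbxo15 and Tdgf1 do not.

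Genes known from the 2-cell embryo, which flicker on in a small share of ES cells, were read as a short list. All 4 listed genes that passed lay below all other clones, with a median difference of -5.31. Gm397, a gene of the Zscan4 family that guards telomeres, read -4.39, -4.83 and -5.30 against -3.56 to 3.99 with a median of 0.95. Tcstv1 read -3.87, -4.69 and -4.03 against -2.79 to 3.55, and Tcstv3 read -4.12, -4.57 and -4.16 against -3.59 to 2.99. Zfp352 was above background in none of the 3 and in all 27 others, a difference of at least 7.07-fold. The lowest other clone was 4F-OP-iPS #2 for all 4 genes. The other probe of Zfp352 and of Tcstv3 and 1 of 2 other Tcstv1 probes overlapped with the other clones, while the remaining Tcstv1 probe and the other Gm397 probe were again separated. Zscan4 and Tcstv genes are families of near-identical copies, and a probe may read several of them.

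Of 14 listed germline genes, 6 lay below all other clones (Dazl, Ddx4, Sycp3, Mael, Hormad1 and Piwil2), 8 overlapped, 13 read below the others' median in all 3 clones (29.4% of all probes did), and the median difference was -4.05. Dazl, an RNA-binding protein of germ cells, read -8.26, -8.18 and -7.67, at background, against -5.83 to 1.98 with a median of -1.29 in the others, at least 21.2-fold lower. Ddx4 (Vasa), a germ cell RNA helicase, read -8.07, -8.18 and -6.25 against -5.50 to 1.12, at least 37.3-fold lower. Mael, a factor of the piRNA pathway, read -7.58, -8.44 and -7.70 against -5.33 to 1.99, at least 51.5-fold lower. Sycp3 and Hormad1, proteins of the meiotic chromosome axis, were at background in all 3 and above background in 26 of 27 others, at least 14.3-fold and 12.8-fold lower. Piwil2, which binds piRNAs, was measured in all 3 at -4.81, -5.83 and -5.14 against -4.27 to -0.65. A 2nd probe of Dazl and of Hormad1, both also at background in all 3, overlapped with the others. Sycp1 and Stk31 differed from the 6 only in that 4F-OP-iPS #2 reached into the range. Tdrkh read 1.93, 1.57 and -0.90, and the OP-derived pair lay above all 27 others (-2.90 to 1.32).

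The promoters of Dazl and Mael are shown with each CG in capitals, since silencing of CpG-rich germline promoters by methylation is known (RefSeq, GRCm38.p6, 250 bases before to 50 after the start, 5′ to 3′ along the gene). Dazl lies at chr17:50293571-50293870 and Mael at chr1:166238695-166238994, both on the minus strand.
Dazl promoter: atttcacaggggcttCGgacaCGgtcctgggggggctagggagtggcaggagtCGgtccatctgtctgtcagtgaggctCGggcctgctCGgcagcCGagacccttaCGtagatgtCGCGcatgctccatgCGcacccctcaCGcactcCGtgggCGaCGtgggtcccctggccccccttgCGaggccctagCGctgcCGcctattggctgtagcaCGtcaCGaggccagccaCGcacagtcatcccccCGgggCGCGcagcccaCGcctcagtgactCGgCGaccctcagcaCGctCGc
Mael promoter: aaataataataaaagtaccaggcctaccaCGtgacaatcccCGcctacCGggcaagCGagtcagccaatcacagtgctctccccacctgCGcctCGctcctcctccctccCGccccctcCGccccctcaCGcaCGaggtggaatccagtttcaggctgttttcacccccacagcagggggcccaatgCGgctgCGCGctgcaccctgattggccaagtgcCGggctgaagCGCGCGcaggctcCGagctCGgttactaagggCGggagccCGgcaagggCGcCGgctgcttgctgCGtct
The Dazl window holds 28 CG and the Mael window 24, and the median over the 15 promoter entries of the germline list was 24. Over all 32851 promoters the median was 7, and over the 15197 of genes with a probe that passed the filter it was 18. The 381 entries of genes lower in the 3 clones had a median of 11 and the 59 of genes higher a median of 18. The quartiles were 18 and 26.5 for the germline list and 8 and 27 for the genes that passed, so that these ranges overlap, and no test was made. DNA methylation was not measured on these arrays.

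Genes of the lineages that leave the early embryo were read next. Of 14 trophoblast genes that passed, 11 read below the others' median in all 3 clones (29.4% of all probes did), the median difference was -2.25, and Hand1 lay below all others. Hand1, a basic helix-loop-helix factor of trophoblast and mesoderm, was at background in all 3 (-8.15, -8.26 and -7.49) and above it in all 27 others (-4.08 to 1.99), at least 31.1-fold lower. Rhox9, of the X-linked Rhox homeobox cluster, read -1.84, -0.17 and 1.69 against a median of 4.65. The ES arrays (EB-3 and RF8) read -5.38 and -4.75 for Hand1, below all 27 other clones. For Rhox9 they read 1.04 and 1.74, also well below the median of the other clones. Of 9 genes of the primed epiblast and primitive streak, Wnt3, the ligand that starts the streak, lay below all others (-8.07, -6.73 and -7.48 against -5.11 to -0.23), and the median difference was -1.51. No gene of the neural list (11 passed) lay outside the range of the others in all 3 clones. Hes5, a target of Notch, read -5.59 and -6.01 in the OP-derived pair, below all 27 others (lowest -4.70), while Sox1 (-2.90) and Pax6 (-0.42) in 4F-OP-iPS #1 lay above all 27.

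The 15 primitive endoderm genes that passed had a median difference of -0.11, and none lay outside the range of the other clones in all 3 (1.70% of all probes lay below and 0.252% above). Gata6, a zinc finger factor that marks this layer, read 2.20, 2.42 and 4.07 (others up to 5.16, median 3.29), and Sox17 read 2.33, 2.65 and 4.03 (others 0.79 to 4.26). ES cells read -2.76 for Gata6 and -3.86 for Sox17, lower than all 30 clones. The laminin and collagen IV genes of the basement membrane that this layer makes (Lama1, Lamb1, Col4a1 and Col4a2) likewise overlapped. Lower differences were those of Amn (-2.77), a membrane partner of cubilin, which read -2.23, -1.19 and -0.36 against a median of 1.53, of Hnf4a (-1.46), of Cubn (-1.30) and of Foxa2 (-1.11). That of Hnf4a was -0.42 on another probe that passed the filter and -2.39 without 4F-TTF-iPS #1.

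The 13 epithelial genes had a median difference of -0.10, and none lay below the others in all 3 clones (1.70% of all probes did). Cdh1 (E-cadherin), the adhesion molecule of ES colonies, read 2.14, 1.87 and 2.51 (others -0.66 to 2.95), with -8.55 on the OP array. Epcam read 1.00, 1.41 and 2.83 and Krt8 5.72, 5.79 and 7.20, both inside the range of the others. Cldn7, a claudin of tight junctions, read -0.96 and -0.04 in the OP-derived pair, below all 27 others (lowest 0.15), and 3.44 in 4F-TTF-iPS #1. Krt19, a keratin of simple epithelia, read 6.73, 5.77 and 6.05, and only 1 other clone reached above the lowest of these (highest 6.14, median 4.39). Of 9 genes of the mesenchymal switch none lay outside the range in all 3. In 4F-OP-iPS #1, Snai2 (Slug) read 3.26 and Fn1 (fibronectin) 5.21, each above all 27 others (highest 1.93 and 3.98). Zeb2, a repressor of E-cadherin, overlapped through 1 clone only, and lay below all others once 3F-OP-iPS #1 and #3 were left out, as did Mybl2 of the pluripotency list and the matrix gene Fbln1.

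Fibroblast genes as a list were not higher than in the other clones. Of 23 that passed, 2 lay below all others, the collagen Col3a1 and the matrix protein Postn, and 15 read below the others' median in all 3 (29.4% of all probes did), with a median difference of -1.29. Col3a1 read -1.16, -0.67 and -1.01 against -0.44 to 4.12, while the OP array read 6.24 and the TTF array 5.59. Further Col3a1 probes were dim and overlapped. Postn read -3.40 and -3.17 in the OP-derived pair, and its lowest value in the others was -2.54. Ly6a, the gene of Sca-1, which OP cells were sorted not to carry, went the other way, at 4.41, 4.51 and 3.89 against a median of 0.79, and only 4 of the 27 reached above the lowest of these (2 of 25 without 3F-OP-iPS #1 and #3). The OP array read 3.54. S100a4 read 6.90, 7.44 and 7.21 (others 5.21 to 8.12). Feeder cells are fibroblasts as well, and their share in each RNA sample was not tested.

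Of 15 imprinted genes, 13 read below the others' median in all 3 clones (29.4% of all probes did), H19 and Mest lay below all others, and the median difference was -1.69. H19, the maternally expressed long non-coding RNA, read -0.77, 0.69 and 2.31 against 2.57 to 6.68, and its 2nd probe separated the groups as well. Igf2, its paternally expressed neighbour, read -2.69, -2.07 and 0.53 against a median of 4.87, with 3F-OP-iPS #1 (0.33) as the lowest other clone. Without 3F-OP-iPS #1 and #3 the lowest other Igf2 value was 1.60, above all 3. Mest read -0.90, -1.23 and -0.22 against -0.15 to 4.61. The maternally expressed Meg3 (Gtl2) read -0.29, 0.39 and 0.43, and 2 others lay below the highest of these, against a median of 3.23. Grb10 ran the other way, at 3.36, 3.92 and 2.33 beside a median of 2.22.

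**Figure D2:**
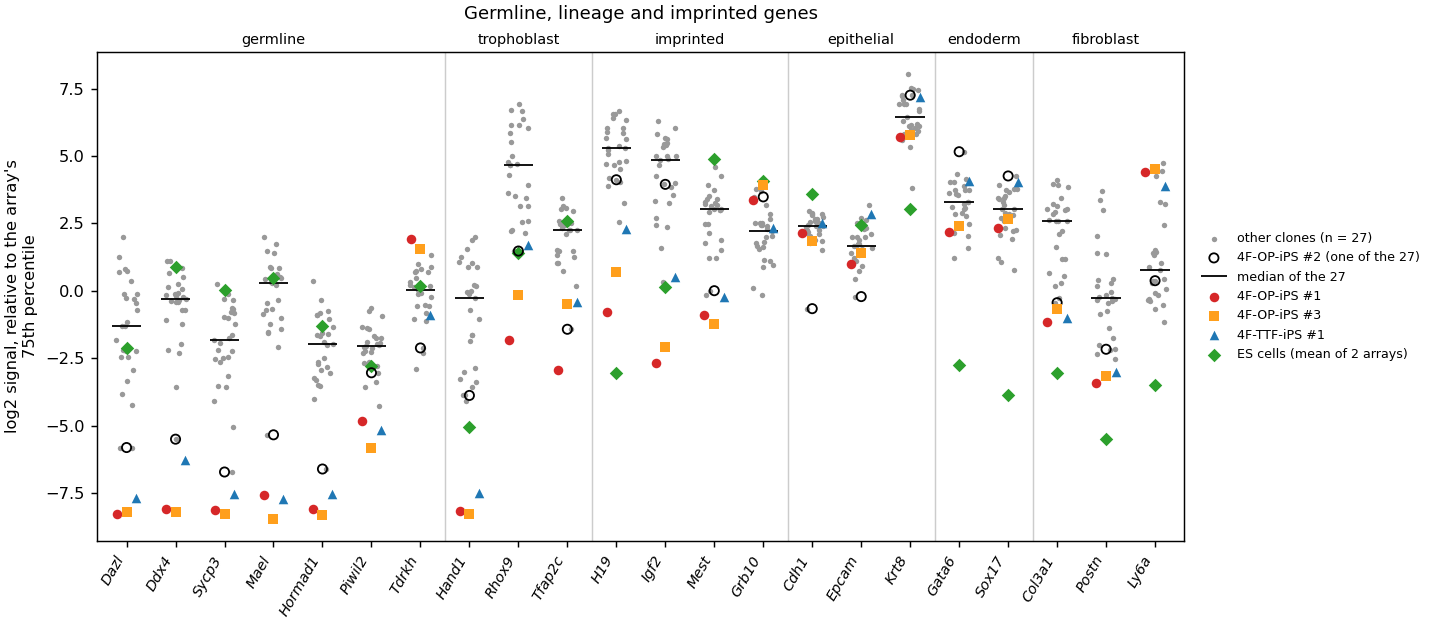
Log2 signals of germline, trophoblast, imprinted, epithelial, endoderm and fibroblast genes in the same arrays, drawn as in the plot of pluripotency genes. The germline genes Dazl to Hormad1 and Hand1 sit near -8 in the 3 clones, apart from Ddx4 in 4F-TTF-iPS #1 (-6.25), whereas Cdh1, Epcam, Krt8, Gata6 and Sox17 lie among the other clones and Ly6a lies near the top of their range.

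None of 12 genes of the cell cycle lay outside the range of the others in all 3 clones, where 1.70% of all probes lay below and 0.252% above, so the count says little for so short a list. Their median difference was 0.01. Mki67, the proliferation antigen, read 4.33, 3.66 and 4.06 (others 2.85 to 4.20). Of the genes known as barriers to reprogramming, Cdkn2a (Ink4a and Arf) read 1.92, 1.39 and 0.10 against a median of -1.49, and 4 of the others reached above the lowest of these (highest 1.30). The 5 genes of this list (Cdkn1a, Cdkn2a, Cdkn2b, Trp53 and its inhibitor Mdm2) had a median difference of 0.40, and all overlapped. None of the genes of LIF and FGF signalling (11 passed), the interferon and MHC list (10), the blood list (7), the bone list (8), the endothelium list (7), the stress list (6) or the sex chromosome list (6) lay outside the range of the other clones in all 3, as most lists of that length would at 1.70% and 0.252%. The blood list includes Cd68 and Csf1r, macrophage genes, which were measured in all 3 at levels inside that range. Laptm5, a lysosomal protein of blood cells, read 0.28 and 0.62 in the OP-derived pair, above all 27 others (highest -0.73), and -3.12 in 4F-TTF-iPS #1. The haemoglobin gene Hba-a1 read -1.72 and -1.28 in that pair, also above all 27 (highest -2.46), and -3.58 in 4F-TTF-iPS #1.

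**Figure D3:**
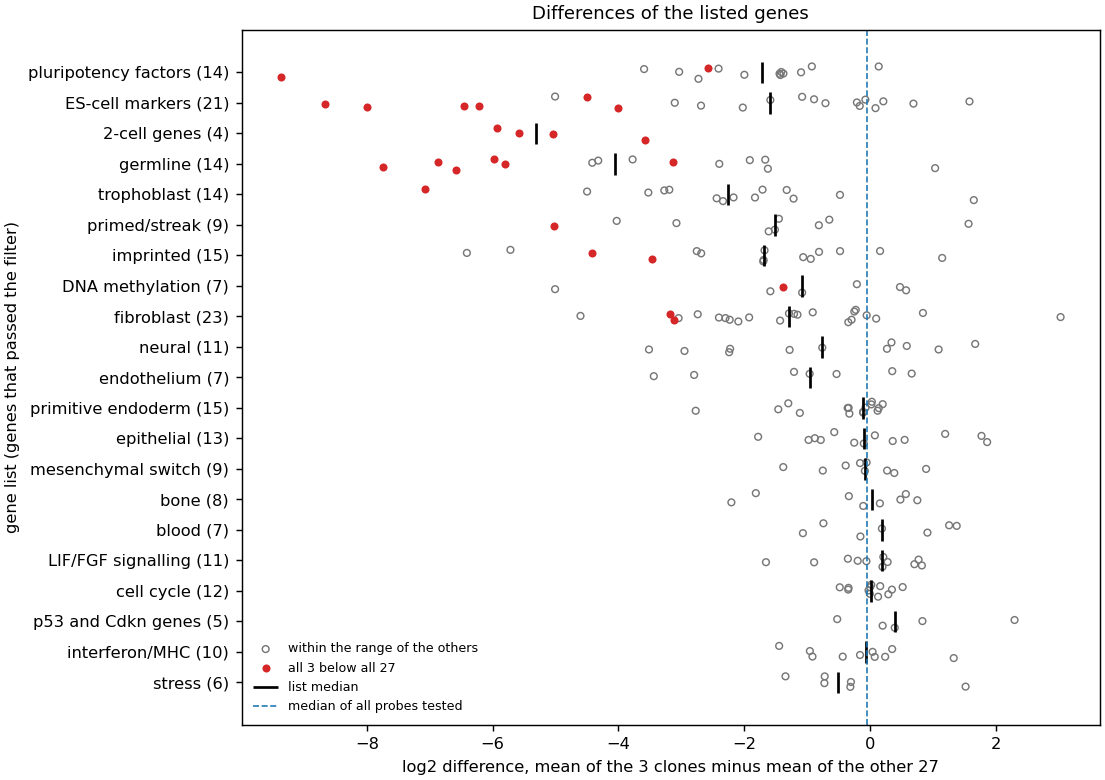
Difference of each listed gene (horizontal axis, mean of the 3 clones minus mean of the other 27, log2) by list, with filled points for genes on which all 3 clones lay below all 27 others. The 2-cell and germline lists have the lowest medians (bars, -5.31 and -4.05), and the cell cycle and primitive endoderm lists lie near the median of all probes tested (dashed, -0.05).

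Of the 6 reprogramming factors and their relatives that passed, Sox2, which made the choice, was the only one below all others. Myc was read by 3 probes, which did not give the same answer. On the 2 probes nearer the 5′ end of the gene (chr15:62063665-62063724 and chr15:62064157-62064216, mm7), 4F-OP-iPS #1 read 3.40 and 5.25, 4F-OP-iPS #3 read 2.58 and 3.93, and 4F-TTF-iPS #1 read 0.78 and 2.55. The other 12 4F clones had medians of -1.08 and 0.69. On the probe nearest the 3′ end (chr15:62064256-62064316) the 3 clones read -0.91, -0.22 and -0.17, where the others ran from -0.90 to 0.92 with a median of -0.01, so that 4F-OP-iPS #1 was just below all of them and the other two lay inside their range. The OP-derived pair therefore had the 2 highest Myc signals of all 30 clones on the first probes, and 3F-OP-iPS #1 (1.66 and 3.41), labelled as made without c-Myc, came next on both. Whether the first probes read RNA of the vector was not tested.

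Genes were then ranked among the separating probes with a gene symbol. The 10 with the lowest mean differences, each above background in at least 20 of the other clones, were Esrrb, Sox2, Rbmxl2, Dppa3, Nanog, Cyct, Dppa4, Stra8, Khdc3 and 1700061G19Rik. For all 10, 4F-OP-iPS #2 was the lowest other clone. Nanog and Sox2 stand there by the rule that chose the clones. Rbmxl2, an RNA-binding protein of the testis, read -8.05, -8.14 and -7.45 against -3.44 to 3.06 with a median of 1.37, at least 124-fold lower. Cyct, the cytochrome c of the testis, read -6.58, -7.08 and -6.01 against -3.13 to 4.06, at least 158-fold lower. Stra8, the gatekeeper of meiosis, read -6.46, -6.18 and -5.29 against -4.66 to 5.77, with 1 of the 3 above background. Khdc3 (Filia), a maternal-effect protein of the oocyte that ES cells also express, read -7.35, -7.69 and -7.63 against -5.40 to 3.12, at least 70.4-fold lower. All 10 were above background on both ES arrays, with means from 0.02 for Cyct to 3.83 for Esrrb.

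In the other direction, the 10 genes with the highest mean differences among separating probes with a gene symbol were Serpina1d, Gcnt3, Sdk2, Upk1b, Calml3, S1pr4, Kcne2, Serpina1e, Igfals and Klk1b16. All 3 clones had to be above background on such a probe. Serpina1d, an antitrypsin of the liver, read 3.77, 2.35 and 2.07, against -5.95 to 1.83 with a median of -4.81. Gcnt3, which branches mucin sugars, read 1.79, 1.10 and -0.10 against -7.37 to -1.26. Sdk2 (Sidekick 2), an adhesion molecule of neurons, read 3.05, 1.72 and 0.06 against -5.06 to -0.35. The separation was wider for Gcnt3 than for the other two, and in 8 of the 10 genes 4F-OP-iPS #1 read highest.

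Upk1b, a membrane protein of the bladder lining, read 1.48, 0.04 and -1.33 against -7.48 to -1.68. Calml3, a calmodulin-like protein of epithelia, read -1.28, -1.81 and -1.08 against -8.65 to -1.88. S1pr4 (listed as Edg6), a receptor for sphingosine 1-phosphate, read -0.64, -2.83 and -4.41 and was above background in 5 of the 27 others (highest -4.96). Kcne2, a potassium channel subunit, read -0.62, -3.73 and -3.29 and was above background in 3 others (highest -4.68). Igfals, the partner that keeps IGFs in the blood, read 1.29, 0.40 and -0.61 against -5.99 to -0.71. Serpina1d, Serpina1e and Klk1b16 belong to families of close copies, so that their probes may read relatives. All 10 read higher in the 3 clones than the ES mean, and no source array reached the lowest of the 3 clones for any of them. No list fixed for a lineage held these genes, and no theme is given to them.

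**Figure D4:**
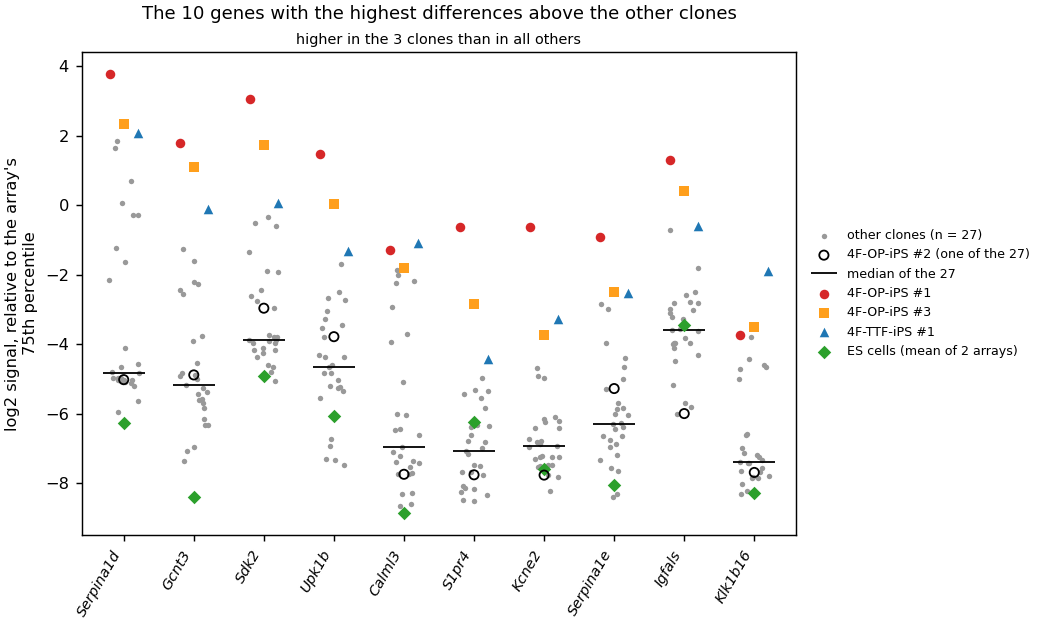
Log2 signals of the 10 genes with the highest mean differences among separating probes with a gene symbol, drawn as in the plot of pluripotency genes. All 3 clones lie above the other 27 on each gene, by margins that are narrowest for Calml3, Klk1b16 and Igfals, and 4F-OP-iPS #1 is the highest of the 3 on 8 of the 10.

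Probes high in the source cells, and probes high in ES cells, were then read as sets to see where the 3 clones stood between both ends. These sets were defined on the source and ES arrays, 4-fold apart, and did not use the clones. Each level is the median log2 difference of a clone from the ES mean over the set. That mean blends ES arrays that were far apart on many fibroblast genes. Col1a1 read -4.62 on EB-3 and 3.13 on RF8, and Dcn -6.83 and 1.93, while Fbln1 was higher on EB-3 (1.99 and 0.46). The distance of a clone from the ES end therefore depends on the ES array used. On 4604 OP-high probes, 4F-OP-iPS #1 stood at 1.19, 4F-OP-iPS #3 at 1.39 and 4F-TTF-iPS #1 at 1.30, within the others (0.91 to 1.71, median 1.35), while the OP array itself stood at 3.21. On 4463 TTF-high probes the levels were 1.03, 1.20 and 1.22 (others 0.84 to 1.56, TTF array 3.31), and on 3979 PαS-high probes 1.42, 1.64 and 1.51 (others 1.12 to 1.90, PαS array 3.14). The mean of the 3 differed from that of the others by -0.09, -0.10 and -0.04, less than the SD between the others (0.19, 0.17 and 0.18, n = 27).

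On 2958 ES-high probes the order was another. The levels were -2.12, -2.20 and -2.02, below 26 of the 27 others (-0.82 at the highest, median -1.32), and only 4F-OP-iPS #2 was lower, at -2.29. The source arrays stood at -3.87 to -4.11 on these probes, below all 30 clones. Of the ES-high probes 32.2%, 30.7% and 36.0% were not above background, against 12.6% to 37.6% in the others with a median of 19.4%. The highest of these shares was also that of 4F-OP-iPS #2, so that the ES-high set did not separate the 3 clones from all others.

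**Figure D5:**
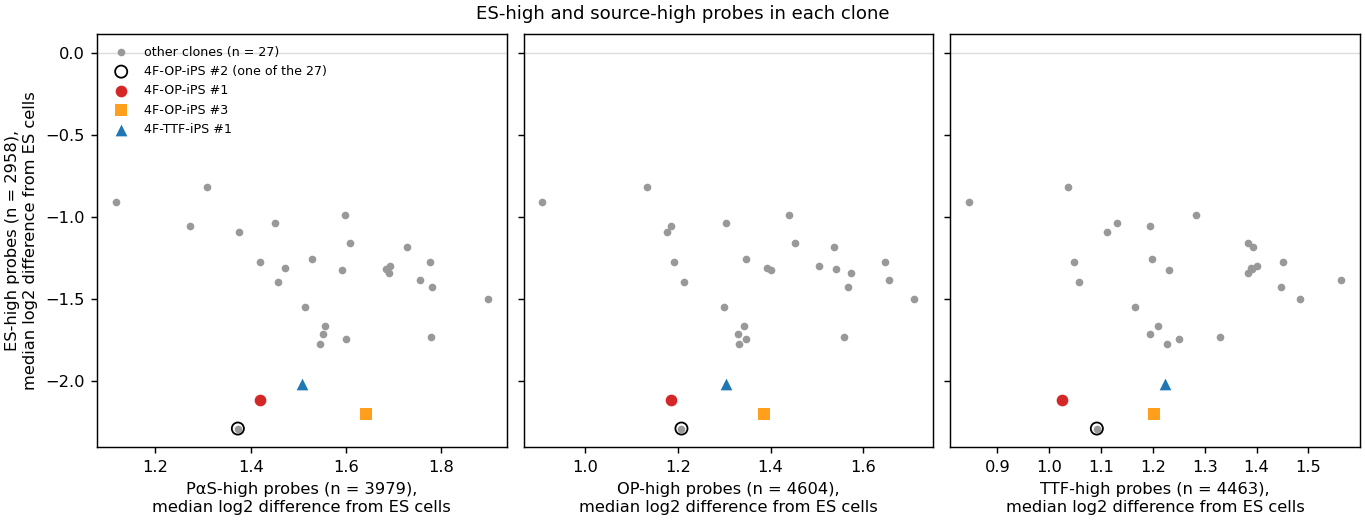
Median log2 difference from the ES mean over ES-high probes (vertical axis) against that over PαS-high, OP-high and TTF-high probes (horizontal axes) for each of 30 clones. The 3 clones and 4F-OP-iPS #2 (ringed) lie at the bottom, from -2.02 to -2.29, while their horizontal positions fall inside the spread of the other clones.

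The 3 clones were then compared with one another, over 28996 probes centred on the median of all clones. The correlation was 0.78 between 4F-OP-iPS #1 and #3, the highest of all 435 pairs of clones, while 4F-TTF-iPS #1 correlated at 0.64 with 4F-OP-iPS #3 and at 0.58 with 4F-OP-iPS #1. Over all pairs the values ran from -0.44 to 0.78, with a median of -0.05. These are correlations across probes, which are not independent, and the clones chosen share low values by the choice, so no test is given. Without the 492 and 73 separating probes the 3 correlations still ranged from 0.48 to 0.73. No pair of the 3 shared a slide. The nearest clone to 4F-TTF-iPS #1 was 4F-TTF-iPS #2 (0.74), from the same slide and source, ahead of both OP-derived clones. The clone nearest on average to the 3 was again 4F-TTF-iPS #2 (0.57), whereas 4F-OP-iPS #2, the nearest by Nanog and Sox2, came 6th (0.27).

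Against the source arrays, over 40835 probes, R² (the squared correlation of log2 signals) with the OP array was 0.805 for 4F-OP-iPS #1 and 0.812 for 4F-OP-iPS #3, places 7 and 3 among 30 clones, and 0.788 for 4F-TTF-iPS #1, place 25. With the TTF array it was 0.781, 0.784 and 0.766, so that 4F-TTF-iPS #1 was not closer to TTF cells than the OP-derived clones were. With the PαS array, the values were 0.847, 0.854 and 0.827. All lay inside the range of the other clones for the same source.

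Between 4F-TTF-iPS #1 and the OP-derived pair, 403 probes (1.39% of those tested) read at least 4-fold higher in 4F-TTF-iPS #1 than in both, and 264 (0.910%) at least 4-fold lower. These are differences between single arrays with no replicate. Genes of the sex chromosomes led both directions. Xist, the RNA that silences an X chromosome, read 2.85 in 4F-TTF-iPS #1 and -8.07 and -8.21 in the pair, at least 487-fold apart. The Y-linked Eif2s3y, Ddx3y, Kdm5d and Rbmy were above background in both OP-derived clones and at background in 4F-TTF-iPS #1, at least 92.6-fold apart for Eif2s3y, 36.6-fold for Ddx3y and 11.9-fold for Rbmy. The other genes among the 5 with the largest differences in each direction were 4933425K02Rik, 9430027B09Rik, Spata16 and Ifi44, higher in 4F-TTF-iPS #1, and the oestrogen receptor Esr1, lower in it (-7.56 against -2.41 and -2.19). Ifi44, an interferon-induced gene, read -2.80 in 4F-TTF-iPS #1 and lay at background in the pair (-8.16 and -8.42).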

How the data were processed

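Total RNA was labelled with Cy3 and hybridised to Agilent mouse arrays in 1 colour. The deposited scanner files hold intensity values per spot, from which the authors' software subtracted the background, with no scaling between arrays. The authors' log2 table, made in GeneSpring GX, is centred per probe, and its scaling between arrays is not given in the sources used here. Control and outlier spots (54 to 152 per array) were left out, replicate spots averaged, and log2 intensity taken minus the 75th percentile of the array, for 41174 gene probes. The number of arrays limits the precision. Well above background is the scanner software's flag. Where no clone of the 3 passed it, a fold is a lower bound: the mean of the other clones against the mean of, per dim array, the higher of its value and its lowest signal well above background. Such a bound is open to normalization as other folds are. Current symbols came from RefSeq by accession (22944 probes matched), positions from the array annotation on mm7. A gene with several probes was read by the one brightest on average in clones and ES cells. Of 255 listed genes, 249 had a probe and 241 passed the filter.

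The members and the 23 gene lists were chosen with earlier results of these data known. Because the clones were chosen by values of the same arrays, no test was made. They were described by probes on which all 3 lay outside the range of the other 27 with at least a 2-fold mean difference. Named genes were the listed ones, the 10 with the largest mean difference in each direction, and the 5 in each direction that separate 4F-TTF-iPS #1 from the OP-derived pair. The 10 were taken among separating probes with a gene symbol, above background in all 3 clones, or in at least 20 others. Counts were checked on simulated data. Alternatives were normexp (offset 50) and quantile normalization in limma 3.58.1 with R 4.3.3, the authors' table, other filters, other probes, fewer clones and within-slide values. Remaining steps used numpy 2.4.6 and pandas 2.3.3 under Python 3.11.15. No per-sample column was left unused for want of a sample.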

Additional observations from a re-analysis of the deposited data

Results flagged for a closer look

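Within the labelled groups of 5 clones, the lowest and the highest clone were compared with the nearest of the others for the 26 separating listed genes, the 4 probe-set levels and the share of probes above background (186 checks). In 13 of them the gap took more than 0.71 of the whole range of the group. Chance gives such a gap in about 1 of 20 groups. In 7 of the 13 the clone was 4F-TTF-iPS #1, the lowest of its group: Esrrb (-7.49), Dppa3 (-7.52), Tcl1 (-5.70), Sox2 (-5.27), Hand1 (-7.49), Hormad1 (-7.54) and H19 (2.31). These genes were taken because all 3 chosen clones lay below every other clone, so that 4F-TTF-iPS #1 had to be the lowest of its group, and nothing is read from its 7 gaps or from their number beside chance. In 5 it was 3F-OP-iPS #1, the lowest of its group for Tbx3 (2.23), Dppa5a (7.60), Zfp352 (-4.16), Tcstv3 (-0.63) and H19 (2.57), and its Myc signal goes against its label. The last was 4F-PαS-iPS #5, the highest of its group for Piwil2 (-0.65). The probe-set levels and the share of probes above background gave no such gap.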

How the results depend on the processing

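No paired analysis was possible because no test was fitted and replicate numbers only name clones. The values of that within-slide comparison are descriptions. The count of lower probes (492) was within 1.5 times of that value under normexp (358), quantile normalization, the authors' table, no filter, a stricter filter, no fold minimum and other 4F clones only. It moved to 747 against clones of the same groups only, to 974 without 4F-OP-iPS #2 and 4F-TTF-iPS #2 (added after seeing the data), and to 1320 within slides, where each clone is compared with fewer others. Leaving out a clone in turn gave 492 to 1320, the highest without 4F-TTF-iPS #1, and 833 without 4F-OP-iPS #2. The count of higher probes (73) was less stable: 36 under normexp, 118 under quantile normalization, 172 with no fold minimum, 120 against other 4F clones, 125 against the same groups, 472 within slides and 113 without 3F-OP-iPS #1 and #3 (added after seeing the data). Leaving out a clone gave 72 to 637, again the highest without 4F-TTF-iPS #1. Of the 492 lower probes, 292 stayed under normexp and 382 under quantile normalization, and of the 73 higher probes 34 and 61.

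The 26 lower listed genes became 18 where all other probes of a gene, if it had any, took the place of its brightest, 30 without 3F-OP-iPS #1 and #3, 58 within slides and 26 to 58 with a chosen clone left out. The count of higher listed genes (0, with no test made) became 3 within slides and 0 to 8. The ES-high difference of the 3 clones (-0.75) was -0.35 with a 2-fold set and -1.34 with an 8-fold set. It was -0.59 with the EB-3 array alone and -0.56 with the RF8 array alone. The TTF-high difference changed sign to 0.11 under quantile normalization. With 8-fold sets the OP-high and TTF-high differences were -0.191 and -0.220. The SD between the other clones was 0.187 and 0.167 on the 4-fold sets, and that of the 8-fold sets is not given. The signs of the PαS-high and OP-high differences changed under quantile normalization (0.13 and 0.10). The mean correlation of the 3 pairs (0.66) was 0.59 to 0.66 under its 4 alternatives, all added after seeing the data. Of 1815 recomputed differences of listed genes, 80 moved by more than the SD between the others, and no separating gene changed sign. Under normexp, whose offset compresses dim signals, Esrrb had a difference of -4.66 (-9.37 without it). For signals not above background the depth of the difference is not known.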
